A study of Mus musculus with 6 samples.

Results

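The genes described here are 44 genes of DNA replication and mitosis, picked by name out of the 54532 genes in the deposited count table. Of these, 21 belong to replication and the entry into S phase, and 23 belong to mitosis and its control. All 44 passed the filter on low counts, which kept 13352 genes. They were measured by RNA-seq in mouse acute myeloid leukemia cells driven by AML1-ETO9a (AE9a), a truncated splice form of the fusion of the transcription factor gene Runx1 with Runx1t1. AE9a was brought into c-Kit+ bone marrow progenitors by a retrovirus, and the cells were taken from leukemic C57BL/6 mice of the third round of transplantation, so both groups carry the same oncogene and had been passaged in mice. The groups are central bone marrow (CBM) cells, flushed out of femurs and tibias, and endosteal bone marrow (EBM) cells, released afterwards from the flushed bones with collagenase I, with 3 libraries each. The labels also say that the cells were kept in serum-containing IMDM around the sort. CBM cells did not see collagenase, so the region and the digestion cannot be told apart. The labels do not say which libraries share a mouse, nor the age of the mice at sampling, and the spread between libraries may be partly technical.

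A dividing cell loads the Mcm2-7 helicase onto origins with Cdc6 and Cdt1, starts it with Cdc45, the GINS complex and Mcm10, and copies DNA behind the clamp Pcna while ribonucleotide reductase and thymidylate enzymes supply nucleotides. Entry into this phase is driven by E2F transcription factors and by cyclin E, which activates Cdk2. Mitosis genes come on later, when B-Myb and FoxM1 switch on cyclin B, Plk1, the Aurora kinases and the spindle machinery. Proliferating leukemia cells express both waves, and leukemia cells at rest express little of either.

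Between 16436526 and 19462964 reads were counted on genes per library. The share of counts that fell on the 44 genes ran from 0.616% to 0.910% in CBM libraries and from 0.663% to 0.759% in EBM libraries. Counting error was small for most of them. It came to 0.839% of the count for Mki67 in its lowest library and to 7.78% for Ccne1, the largest among the 44. Kit, a receptor of stem and progenitor cells, was at between 196 and 239 CPM (counts scaled to the library total after TMM normalization) in all 6 libraries. Cd34 was lower, between 1.16 and 16.4 CPM, and the 8 blast markers (5 tested) summed to between 1259 CPM in CBM 2 and 1747 CPM in EBM 3. The mean log2 CPM of the 5 tested, centred on each gene's own average, differed between libraries. It was 0.38, -0.52 and -0.12 in CBM 1 to 3 and 0.41, 0.22 and -0.37 in EBM 1 to 3, so CBM 2 and EBM 3 were lowest.

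Promoters of replication genes are known for E2F sites, and those of mitosis genes for CHR and CCAAT elements. RefSeq start sites on GRCm38.p6 gave a window of 300 bases, from 250 bases before to 50 after the start, for 34 of the 44 genes, 17 in each set. Searched on both strands were the E2F letters TTTCCCGC, TTTCGCGC, TTTGCCGC and TTTGGCGC, the cell cycle homology region (CHR) letters TTTGAA and TTCGAA, bound by the complex of B-Myb or its repressive counterpart, and the box CCAAT. CHR letters were in 13 of the 17 mitosis windows (76.5%), in 4 of the 19 windows of the replication genes (21.1%) and in 19.2% of all 32851 windows. E2F letters were in 7 of the 19 replication windows (36.8%), in 1 of the 17 mitosis windows (5.88%) and in 2.26% of all windows. CCAAT was in 68.4% of the replication windows, 88.2% of the mitosis windows and 37.4% of all windows. Short letters like these match by chance, so a match is a description and not a bound site. Printed here are 2 mitosis windows with CHR and CCAAT letters, 2 replication windows with E2F letters, and the window of Ccne1, the gene with the largest fitted difference between the regions, which held none of the letters searched. Capitals mark every match on either strand, and overlapping matches run together. The Cdc6 window, from 98907901, lies inside the gene as annotated for the counts, which starts at 98907801. Its match is thus not upstream of that start. The window of E2f1, not printed, also lies inside its annotated gene.
Ccnb2, chr9:70421505-70421804, minus strand: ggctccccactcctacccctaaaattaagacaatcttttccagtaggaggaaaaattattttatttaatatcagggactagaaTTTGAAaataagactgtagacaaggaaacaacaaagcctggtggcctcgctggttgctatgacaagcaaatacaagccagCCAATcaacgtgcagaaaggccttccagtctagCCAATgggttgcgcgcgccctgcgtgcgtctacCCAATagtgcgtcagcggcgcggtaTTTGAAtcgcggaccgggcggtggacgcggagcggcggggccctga
Cdc20, chr4:118437294-118437593, minus strand: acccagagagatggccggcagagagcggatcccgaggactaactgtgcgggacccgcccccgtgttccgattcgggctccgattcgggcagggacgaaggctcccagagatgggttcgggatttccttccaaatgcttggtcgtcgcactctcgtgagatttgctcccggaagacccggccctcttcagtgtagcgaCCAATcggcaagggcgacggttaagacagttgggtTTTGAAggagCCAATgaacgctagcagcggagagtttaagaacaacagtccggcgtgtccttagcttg
Cdc6, chr11:98907901-98908200, plus strand: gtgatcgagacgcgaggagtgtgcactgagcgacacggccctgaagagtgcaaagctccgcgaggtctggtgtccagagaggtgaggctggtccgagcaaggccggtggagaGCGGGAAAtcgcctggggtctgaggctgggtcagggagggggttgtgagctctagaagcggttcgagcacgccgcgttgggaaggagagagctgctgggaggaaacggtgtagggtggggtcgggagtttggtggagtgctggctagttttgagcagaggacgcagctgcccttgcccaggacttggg
Mcm6, chr1:128359656-128359955, minus strand: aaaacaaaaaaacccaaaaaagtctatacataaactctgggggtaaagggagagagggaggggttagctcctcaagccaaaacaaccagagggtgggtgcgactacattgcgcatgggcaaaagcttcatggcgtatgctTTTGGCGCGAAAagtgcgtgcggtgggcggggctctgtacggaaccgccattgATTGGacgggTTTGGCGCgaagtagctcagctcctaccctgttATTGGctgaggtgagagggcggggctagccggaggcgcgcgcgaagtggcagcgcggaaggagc
Ccne1, chr7:38107441-38107740, minus strand: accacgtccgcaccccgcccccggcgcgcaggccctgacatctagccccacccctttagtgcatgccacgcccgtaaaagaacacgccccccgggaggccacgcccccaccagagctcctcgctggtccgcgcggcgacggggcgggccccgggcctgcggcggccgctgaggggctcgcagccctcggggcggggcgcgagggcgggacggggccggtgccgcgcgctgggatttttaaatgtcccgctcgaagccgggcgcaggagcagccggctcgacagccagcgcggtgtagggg

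Between the regions, most replication and mitosis genes had similar mean levels. The largest fitted differences were the lower levels of the cyclin E genes Ccne1 and Ccne2 in EBM. The quasi-likelihood test of edgeR called none of the 44 genes at an adjusted p of 0.05, and neither did DESeq2 or limma-voom. Over all 13352 genes edgeR called 0 (0%), with 1056 at an unadjusted p under 0.05, while DESeq2 called 175, with 0.349% of the 12619 genes it gave an adjusted p lower and 1.04% higher in EBM. By unadjusted edgeR p under 0.05, 0 of the 44 genes were higher in EBM, against 4.01% of all genes tested. Lower in EBM were 2 of the 44, Ccne1 and Ccne2, close to the share over all genes tested, 3.90%. This count also moved with single libraries. Without CBM 1, 6 genes were lower (Ccne1, Ccne2, E2f1, Rrm2, Tk1 and Cenpe), without EBM 3 the count was 3 with E2f1 added, and without EBM 2 it was 1, Ccne2. Without CBM 3 or without EBM 1 no gene remained, and without CBM 2 none was lower and 1, Cdc45, was higher. Over all genes, in either direction, 961 of 13770 had such a p without CBM 1. The number was 1136 of 13825 without EBM 3 and 951 of 13700 without EBM 2. It was 678 of 13728 without CBM 3, 712 of 13712 without EBM 1 and 1015 of 13646 without CBM 2. Shares by direction were not computed for these fits. Every EBM library lay below every CBM library for 1 of the 44 genes, Ccne2, where 7.65% of all genes tested showed this, and none lay wholly above, against 7.47%. In bulk RNA, fewer dividing cells and less RNA of these genes per cell cannot be told apart.

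The fitted log2 fold change, EBM minus CBM, was negative for 30 of the 44 genes and positive for 14, with a median of -0.06. Over all genes tested, 49.6% were negative and the median was 0.0017. This split rested on single libraries and on the scaling. Without CBM 2, 15 of the 44 were negative, without CBM 1 the number was 43, and with library totals in place of TMM it was 40. The median over all genes was 0.0052 without CBM 2 and 0.0095 without CBM 1. With library totals it was -0.0695, so fold changes as a whole were lower with that scaling. The share of all genes that was negative was not computed for these fits. With TMM and all 6 libraries, the median of the 21 replication genes was -0.07, with 16 negative. For the 23 mitosis genes it was -0.05, with 14 negative. The 95% interval of the difference lay within a 2-fold change either way for all 23 mitosis genes and for 16 of the 21 replication genes. It lay within 1.5-fold for 18 mitosis genes and 14 replication genes. The exceptions at 2-fold were Ccne1, Ccne2, Cdc6, Rrm2 and E2f2.

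**Figure D1:**
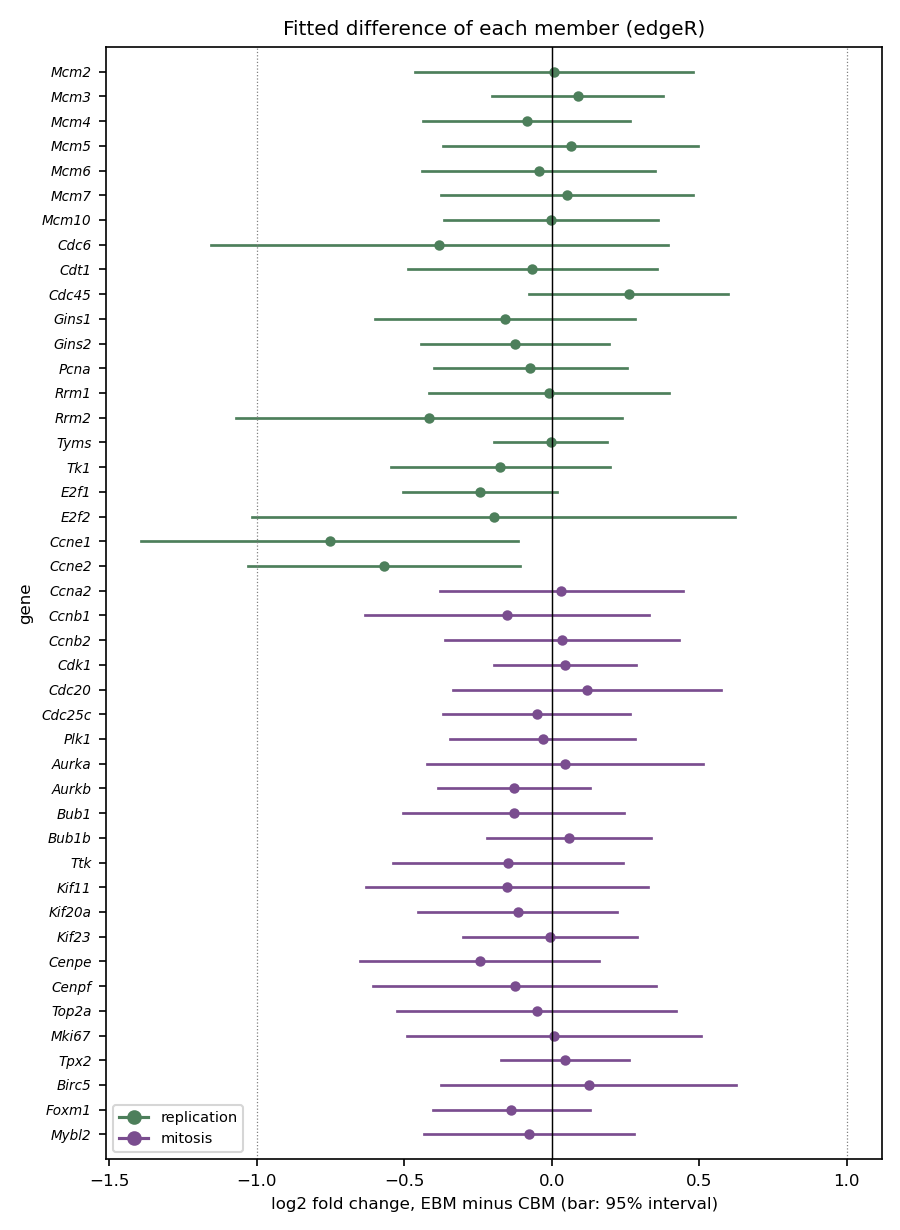
Fitted log2 fold change (EBM minus CBM, horizontal axis) of each of the 44 genes with its 95% interval, replication genes in green and mitosis genes in purple; dotted lines mark a 2-fold change either way. The intervals of Ccne1 and Ccne2 are the 2 that lie wholly to one side of 0, and no gene passed an adjusted p of 0.05.

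The larger spread was among the CBM libraries. CBM 2 was the highest of the 6 libraries for 30 of the 44 genes, where it was highest for 22% of all genes tested. Over all genes the libraries stood apart in a similar way, with scores of -38.5, 42.9 and 5.8 for CBM 1 to 3 and -36.4, -19.8 and 46.0 for EBM 1 to 3 on the first principal component, which held 53% of the variance. CBM 1 was the lowest for 31 of the 44, where it was lowest for 18.5% of all genes. EBM 3 was the highest for another 10 genes and CBM 3 for 4, and neither CBM 1, EBM 1 nor EBM 2 was the highest for any. Over all genes tested CBM 1 was the highest for 18.7%. The shares for CBM 3 and the EBM libraries are not given here, so their counts are a description only. The mean log2 CPM of the 21 replication genes, centred on each gene's own average, came to -0.27, 0.32 and 0.12 in CBM 1 to 3 and -0.22, -0.08 and 0.13 in EBM 1 to 3. The same mean of the 23 mitosis genes was -0.24, 0.26 and 0.03 in CBM and -0.11, -0.01 and 0.07 in EBM. In both sets CBM 1 was lowest and CBM 2 highest, and the 3 EBM libraries lay between them. The levels of all 3 EBM libraries lay inside the range of the CBM libraries for 22 of the 44 genes, against 17.8% of all genes tested, and the reverse held for 0 of the 44, against 15.8%. The SD among CBM libraries was larger than the difference between the regions for 40 of the 44 genes (62% of all genes tested). It was larger than the SD among EBM libraries for 40 of the 44 (49.7% of all genes). The SD among EBM libraries exceeded the difference between the regions for 30 of the 44, against 8279 of the 13352 genes tested. The highest library exceeded the lowest by a median of 1.499-fold over the 44 genes, compared with 1.552-fold over all genes tested.

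**Figure D2:**
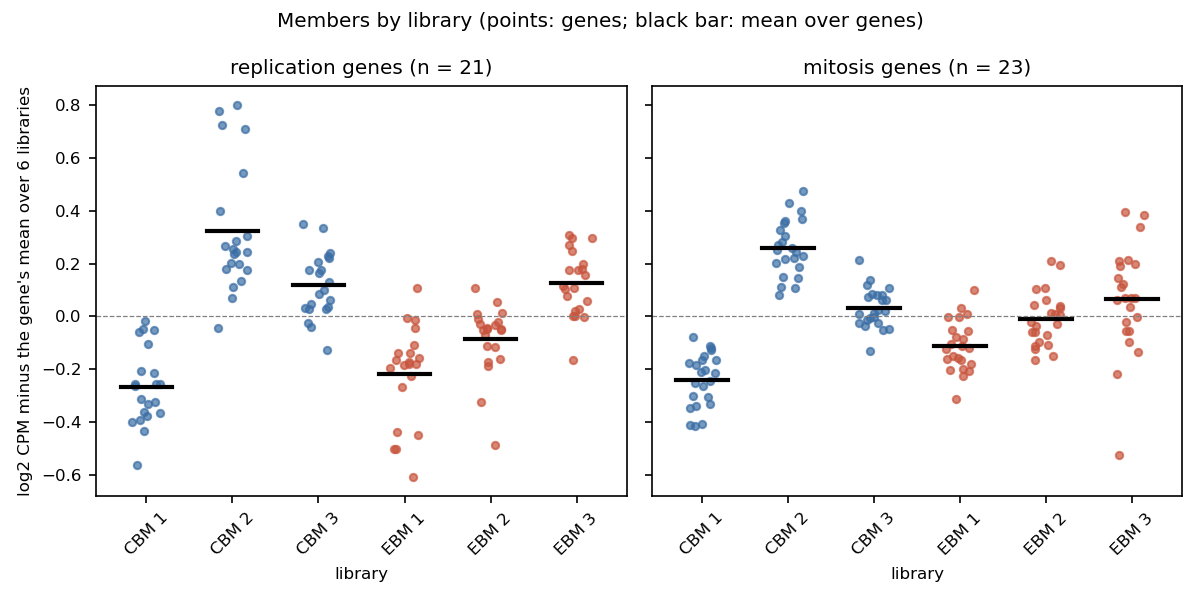
Level of each gene in each library, as log2 CPM minus the gene's mean over the 6 libraries (vertical axis), for 21 replication genes (left) and 23 mitosis genes (right); points are genes and black bars are means over genes. In both panels CBM 1 sits lowest and CBM 2 highest, with the EBM libraries between.

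Transcripts of the erythroid lineage varied in a similar order. The summed level of 11 erythroid markers, all of them counted, was 3473, 10130 and 4941 CPM in CBM 1 to 3 and 4040, 5597 and 8053 CPM in EBM 1 to 3. CBM 1 and EBM 1 were again lowest, and EBM 3 and CBM 2 highest. Their part in the levels of the replication and mitosis genes was not tested. Between the regions, none of the 11 markers had an edgeR p under 0.05 before adjustment and the median log2 fold change was -0.14. Among them, the anion exchanger gene Slc4a1 had 285, 2236 and 866 CPM in CBM 1 to 3 and 434, 771 and 2125 CPM in EBM 1 to 3.

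**Figure D3:**
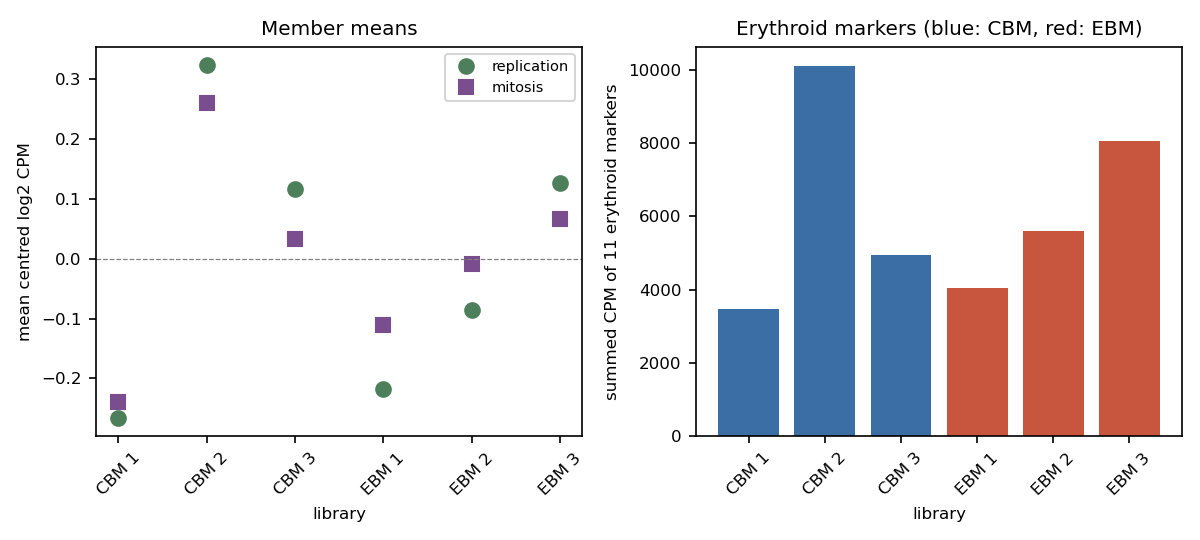
Left, mean centred log2 CPM of the replication genes (circles) and mitosis genes (squares) in each library; right, summed CPM of 11 erythroid markers in the same libraries, with CBM in blue and EBM in red. CBM 1 is lowest and CBM 2 highest in both panels.

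Other cell types contributed few counts. Neutrophil markers, 10 of 12 tested, summed to between 9.28 and 257 CPM in CBM and between 45.2 and 220.3 CPM in EBM, with CBM 2 and EBM 2 highest. Macrophage markers summed to between 9.87 and 14.1 CPM in CBM and 7.71 and 13.3 CPM in EBM, with C1qa at most 0.331 CPM. The sums were at most 14.6 CPM for B cell markers, 12.7 CPM for T cell markers, 13.2 CPM for osteoblast and stromal markers and 28.9 CPM for megakaryocyte markers. Col1a1, the main collagen gene of osteoblasts, was at or below 0.390 CPM, and Bglap2, Sp7 and Alpl had 0 counts in every library. Endothelial markers summed to between 66.8 and 96.9 CPM, nearly all of it from Eng and Plvap, while Cdh5 was at most 0.114 CPM and Emcn had 0 counts. No marker in these lists had an adjusted p under 0.05 in edgeR's test, and their part in the results was not tested.

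Among replication genes, the 6 subunits of the replicative helicase were abundant and close to each other. Per kb of gene length their mean level over 6 libraries ran from 55.4 CPM per kb for Mcm2 to 83.4 CPM per kb for Mcm6. Their log2 fold changes lay between -0.09 (Mcm4) and 0.09 (Mcm3), with 4 positive and 2 negative under TMM, but 1 positive (Mcm3) and 5 negative with library totals. With library totals the median over all genes was -0.07. Mcm2, a subunit of the hexamer, was at 293, 431 and 429 CPM in CBM 1 to 3 and 325, 367 and 467 CPM in EBM 1 to 3. Its highest library was EBM 3 and its lowest CBM 1, and the regions overlapped. The log2 fold change was 0.0081 (SE 0.20, edgeR adjusted p = 0.997), with a 95% interval from 0.725 to 1.40-fold. CBM 1 was the lowest library for all 6 subunits, and EBM 3 was the highest for Mcm2, Mcm3, Mcm5 and Mcm7. Mcm7, with 35656 counts, is overlapped on the opposite strand by Cops6 (9208 counts) and Ap4m1 (3265 counts).

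Of the factors that load and start the helicase, Cdc6 varied most and Cdc45 was the replication gene with the largest positive fold change. Cdc6, the loader, was at 73.9, 165 and 117 CPM in CBM 1 to 3 and 70.4, 79.6 and 123 CPM in EBM 1 to 3. CBM 2 stood above the rest, CBM 3 and EBM 3 were close, and the other 3 libraries were lower. Cdc6 had a log2 fold change of -0.38 (SE 0.33, edgeR adjusted p = 0.874), which moved to -0.07 without CBM 2, -0.22 without EBM 1, -0.63 without CBM 1 and -0.67 without EBM 3. Cdc45, which joins the loaded helicase, was at 39.7, 56.6 and 48.0 CPM in CBM 1 to 3 and 56.4, 56.4 and 60.1 CPM in EBM 1 to 3. Its EBM libraries were close to each other and level with CBM 2, while CBM 1 and CBM 3 were lower. For Cdc45 the log2 fold change was 0.26 (SE 0.14, edgeR adjusted p = 0.722), with 0.14 without CBM 1 and 0.40 without CBM 2. Its gene overlaps Ufd1 on the opposite strand, which had 7293 counts over the 6 libraries against 5710 for Cdc45 and a log2 fold change of 0.21, and the use of strand in counting is not given in the sources used here. Mcm10, a scaffold of the starting fork, was at 63.6, 91.4 and 74.8 CPM in CBM 1 to 3 and 68.1, 79.0 and 82.2 CPM in EBM 1 to 3, with the EBM libraries inside the CBM range and a log2 fold change of -0.0032 (SE 0.15, edgeR adjusted p = 0.998). Cdt1, Gins1 and Gins2 had log2 fold changes of -0.07, -0.16 and -0.12, each with an edgeR adjusted p of at least 0.923. Gins2 is overlapped on the opposite strand by Gse1, with 9516 counts against 2494 for Gins2, so its count is uncertain.

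Pcna, the sliding clamp, had the highest level per length of the 44 genes, 176 CPM per kb. It was at 364, 462 and 475 CPM in CBM 1 to 3 and 367, 418 and 453 CPM in EBM 1 to 3, with the EBM libraries inside the CBM range. Its log2 fold change was -0.07 (SE 0.14, edgeR adjusted p = 0.976).

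The genes that supply deoxynucleotides ranged from the most even to among the most variable of the 44. Tyms, thymidylate synthase, was at 84.2, 82.7 and 89.0 CPM in CBM 1 to 3 and 84.3, 84.0 and 86.9 CPM in EBM 1 to 3, and its highest library exceeded its lowest by 1.08-fold, the smallest such ratio of the 44. Rrm2, the regulatory subunit of ribonucleotide reductase, was at 53.5, 115 and 81.9 CPM in CBM 1 to 3 and 51.4, 65.0 and 71.2 CPM in EBM 1 to 3. CBM 2 was above all other libraries, CBM 1 and EBM 1 were lowest, and the highest exceeded the lowest by 2.24-fold. Rrm2 had a log2 fold change of -0.42 (SE 0.27, edgeR adjusted p = 0.789), with -0.11 without CBM 2 and -0.65 without CBM 1. On the log2 scale the fold change of its partner Rrm1 was -0.0095, and the thymidine kinase gene Tk1 had -0.17 (SE 0.16, adjusted p = 0.883 by edgeR).

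The regulators of S phase entry included Ccne1 and Ccne2, the replication genes with the largest fitted differences, and all 4 fold changes were negative, with a median of -0.41. Ccne2, one of the cyclins E that activate Cdk2, was at 15.9, 24.0 and 20.8 CPM in CBM 1 to 3 and 11.6, 14.7 and 14.7 CPM in EBM 1 to 3. Every EBM library was below every CBM library, and the nearest were CBM 1 and EBM 2. The means were 20.2 ± 4.09 CPM for CBM against 13.7 ± 1.78 CPM for EBM (SD, n = 3 libraries; two-sided p = 0.1 by exact permutation, the lowest value 3 libraries against 3 can give). The log2 fold change was -0.57 (SE 0.19, unadjusted p = 0.0225 and adjusted p = 0.541 in edgeR's test), a ratio of 0.675 with a 95% interval of the fold from 0.490 to 0.928. Ccne2 overlaps Ints8 on the opposite strand, which had 8253 counts against 1856 for Ccne2 and a log2 fold change of -0.07. The count of Ccne2 is therefore uncertain as well.

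Ccne1, the other cyclin E gene, was at 13.4, 24.3 and 17.8 CPM in CBM 1 to 3 and 9.11, 9.91 and 13.9 CPM in EBM 1 to 3. EBM 1 and EBM 2 were below every CBM library, and EBM 3 was level with CBM 1, so the regions overlapped. Its means were 18.5 ± 5.51 CPM for CBM against 10.99 ± 2.59 CPM for EBM (SD, n = 3 libraries; two-sided p = 0.2 by exact permutation). Ccne1 had a log2 fold change of -0.75 (SE 0.27, unadjusted p = 0.0273 and adjusted p = 0.552 in edgeR's test), with a 95% interval of the fold from 0.382 to 0.924. Per length, both cyclin E genes were among the 3 lowest of the 44, at 5.54 CPM per kb for Ccne1 and 4.84 CPM per kb for Ccne2. The fold changes kept their sign with each library left out, between -0.97 and -0.50 for Ccne1 and between -0.71 and -0.43 for Ccne2. The unadjusted p of Ccne1 in edgeR's test was over 0.05 without CBM 2 (0.0894), CBM 3 (0.0542), EBM 1 (0.0808) or EBM 2 (0.0825). For Ccne2 the edgeR p was over 0.05 without CBM 2 (0.0731), CBM 3 (0.0617) or EBM 1 (0.0705). Both were lower in EBM in all 3 pairs of libraries of the same number, which for Ccne2 follows from the lack of overlap. The share of all genes with this pattern was not computed.

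E2f1, an E2F factor that activates genes of S phase, was at 65.1, 77.3 and 77.7 CPM in CBM 1 to 3 and 59.7, 59.1 and 67.3 CPM in EBM 1 to 3. EBM 1 and EBM 2 were below the CBM libraries, and EBM 3 was above CBM 1 alone. Its log2 fold change was -0.24 (SE 0.11, unadjusted p = 0.0644 and adjusted p = 0.661 in edgeR's test). E2f2, a related activator, was at 108, 272 and 155 CPM in CBM 1 to 3 and 118, 160.5 and 189 CPM in EBM 1 to 3. CBM 2 exceeded CBM 1 by 2.52-fold, the EBM libraries lay inside the CBM range, and the log2 fold change was -0.20 (SE 0.34, adjusted p = 0.973 by edgeR).

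**Figure D4:**
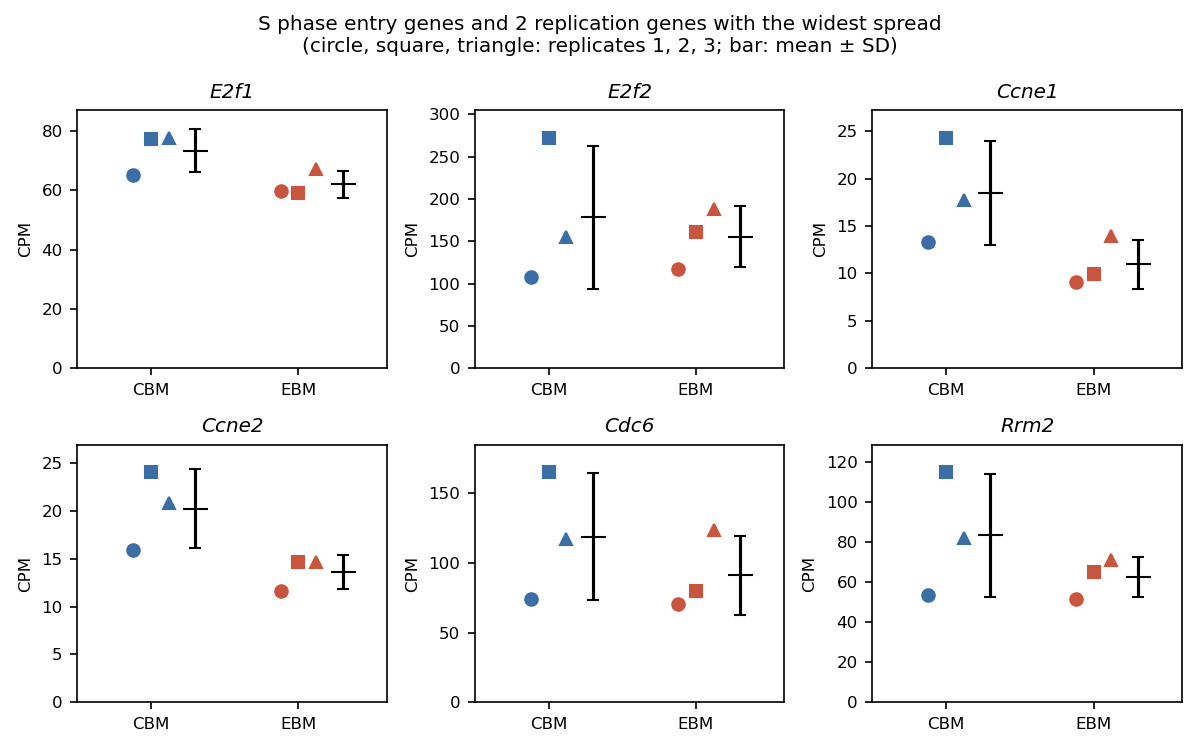
CPM (vertical axis, from 0) of the 4 S phase entry genes and of Cdc6 and Rrm2 in each CBM and EBM library; circles, squares and triangles are replicates 1, 2 and 3, and bars are means ± SD (n = 3). For Ccne2 the 3 EBM libraries sit below all CBM libraries, and for the other 5 genes the regions overlap.

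For all 23 mitosis genes the difference between the regions was smaller than the SD among CBM libraries, and their fitted fold changes lay between -0.24 (Cenpe) and 0.12 (Birc5). None of the 23 had an edgeR p under 0.05 before adjustment. Mki67, which codes for the proliferation antigen Ki-67 on the surface of mitotic chromosomes, was the most highly counted of the 44, at 808, 1412 and 1033 CPM in CBM 1 to 3 and 1031, 1237 and 1002 CPM in EBM 1 to 3. CBM 2 was highest and CBM 1 lowest, with the EBM libraries between them, and the means were 1084 ± 306 CPM for CBM against 1090.0 ± 128 CPM for EBM (SD, n = 3 libraries). Its log2 fold change was 0.0077 (SE 0.21, edgeR adjusted p = 0.997), with a 95% interval from 0.712 to 1.42-fold. Top2a, the topoisomerase that untangles chromosomes, was at 444, 759 and 624 CPM in CBM 1 to 3 and 527, 594 and 643 CPM in EBM 1 to 3. Its order of libraries was the same at both ends, and its log2 fold change was -0.05 (SE 0.20, edgeR adjusted p = 0.988).

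Cyclins, Cdk1 and the proteins that switch it on or end its activity had 4 positive and 2 negative fold changes under TMM, but 1 positive (Cdc20) and 5 negative with library totals. The median over all genes with library totals was -0.07. Cdk1, the mitotic kinase, was even across libraries, at 78.6, 96.4 and 89.1 CPM in CBM 1 to 3 and 89.2, 89.6 and 93.8 CPM in EBM 1 to 3. CBM 1 was lowest and the other 5 libraries lay close together, with a log2 fold change of 0.04 (SE 0.10, edgeR adjusted p = 0.980). Ccnb1, its cyclin partner, was at 108, 172 and 146 CPM in CBM 1 to 3 and 107, 123 and 154 CPM in EBM 1 to 3. CBM 1 and EBM 1 were lowest and level with each other, and the log2 fold change was -0.15 (SE 0.20, edgeR adjusted p = 0.946). The fold changes of the other members, on the log2 scale, were 0.03 for Ccna2, 0.04 for Ccnb2, -0.05 for the phosphatase gene Cdc25c and 0.12 for Cdc20, the activator of the anaphase-promoting complex. Cdc20 overlaps Elovl1 and Ccna2 overlaps Exosc9 on the opposite strand, so their counts are uncertain.

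Mitotic kinases and the spindle checkpoint showed the same lack of separation. Plk1, polo-like kinase 1, was at 69.8, 84.3 and 84.5 CPM in CBM 1 to 3 and 74.3, 69.9 and 89.4 CPM in EBM 1 to 3. EBM 3 was highest and CBM 1 and EBM 2 lowest, with a log2 fold change of -0.03 (SE 0.13, edgeR adjusted p = 0.989). Aurkb, the kinase of the chromosomal passenger complex, was at 86.0, 108 and 98.7 CPM in CBM 1 to 3 and 88.0, 87.2 and 93.2 CPM in EBM 1 to 3. All EBM libraries lay inside the CBM range, in its lower part, and the log2 fold change was -0.13 (SE 0.11, edgeR adjusted p = 0.871), which was -0.04 without CBM 2 and -0.21 without CBM 1. Aurka, the kinase of spindle poles, and Birc5, survivin, had log2 fold changes of 0.05 and 0.12, of which that of Aurka turned negative with library totals, and both were highest in EBM 3. Bub1, a kinase that signals unattached kinetochores, was at 54.8, 81.3 and 68.8 CPM in CBM 1 to 3 and 57.3, 62.2 and 68.0 CPM in EBM 1 to 3, with a log2 fold change of -0.13 (SE 0.16, edgeR adjusted p = 0.934). CBM 2 was highest, and the EBM libraries lay inside the CBM range. Ttk, the Mps1 checkpoint kinase, was at 28.9, 42.9 and 35.0 CPM in CBM 1 to 3 and 29.2, 32.7 and 34.4 CPM in EBM 1 to 3, again with the EBM libraries inside the CBM range and a log2 fold change of -0.15 (SE 0.16, edgeR adjusted p = 0.924). Bub1b, which codes for BubR1, had 0.06, and -0.01 with library totals.

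Spindle motors and kinetochore proteins had 5 negative and 1 positive fold changes under TMM and 6 negative with library totals, and CBM 2 was the highest library for all 6. The median over all genes with library totals was -0.07. Cenpe, a kinetochore motor, had the smallest p among the mitosis genes. It was at 82.3, 128 and 103 CPM in CBM 1 to 3 and 85.1, 97.9 and 81.9 CPM in EBM 1 to 3, where EBM 3 was level with CBM 1 and CBM 2 stood highest. The log2 fold change was -0.24 (SE 0.17, edgeR adjusted p = 0.808), with -0.07 without CBM 2 and -0.39 without CBM 1. Kif20a, a kinesin of cytokinesis, was at 51.5, 69.1 and 60.8 CPM in CBM 1 to 3 and 50.1, 55.0 and 62.5 CPM in EBM 1 to 3. The regions overlapped, and the log2 fold change was -0.12 (SE 0.14, edgeR adjusted p = 0.934). It moved to -0.0084 without CBM 2, -0.04 without EBM 1, -0.21 without EBM 3 and -0.22 without CBM 1. Its gene overlaps Cdc23 on the opposite strand, which had 7916 counts against 6311 for Kif20a and a log2 fold change of -0.10. Kif11, the motor that pushes spindle poles apart, had -0.15, Kif23 had -0.0069 and Tpx2, a spindle assembly factor, had 0.05 on the log2 scale. Cenpf, a large kinetochore protein, was at 76.0, 97.5 and 81.4 CPM in CBM 1 to 3 and 86.1, 91.8 and 55.8 CPM in EBM 1 to 3, and EBM 3 was the lowest of the 6 libraries although it was the highest for 10 of the 44.

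Foxm1 and Mybl2, the transcription factors that drive the mitotic wave, had small negative fold changes. Foxm1 was at 73.5, 93.9 and 82.9 CPM in CBM 1 to 3 and 72.9, 78.3 and 76.5 CPM in EBM 1 to 3. CBM 2 and CBM 3 were above all EBM libraries and CBM 1 lay among them, with a log2 fold change of -0.14 (SE 0.11, edgeR adjusted p = 0.856), which was -0.04 without CBM 2 and -0.22 without CBM 1. Mybl2, which codes for B-Myb, was at 93.2, 124 and 129.5 CPM in CBM 1 to 3 and 97.0, 115 and 117 CPM in EBM 1 to 3. CBM 1 and EBM 1 were lowest, and the log2 fold change was -0.08 (SE 0.15, edgeR adjusted p = 0.976).

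**Figure D5:**
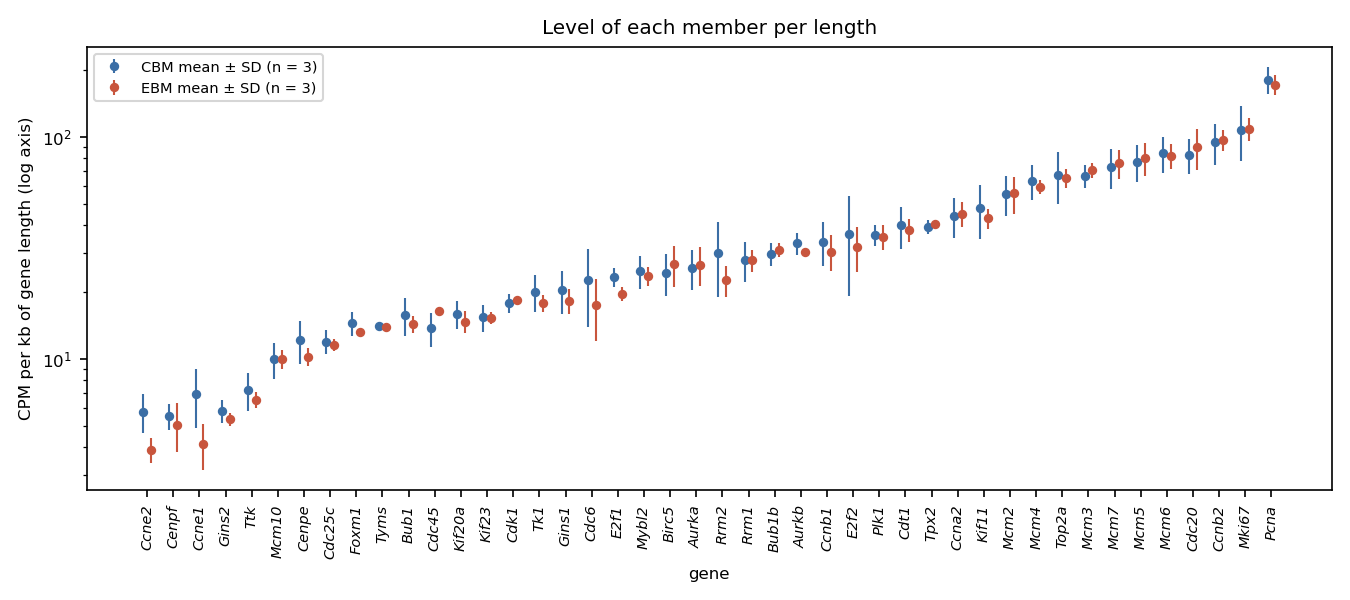
Mean level of each of the 44 genes per kb of gene length in CBM (blue) and EBM (red), on a log axis in CPM per kb, with bars of 1 SD (n = 3) and genes ordered by their mean over 6 libraries. Ccne2 is lowest and Pcna highest, and the bars of CBM and EBM overlap for all genes but Ccne2.

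Further genes of the same pathways were read from lists that are not part of the 44. Of 45 other replication genes, all tested, 36 had a negative and 9 a positive fold change, with a median of -0.09, and with library totals 41 were negative and 4 positive. Over all genes tested, 49.6% were negative under TMM, and with library totals the median over all genes was -0.07. The splits of these further lists were not recomputed with single libraries left out. The mean centred log2 CPM of the 45 genes was lowest in CBM 1 (-0.20) and highest in CBM 2 (0.23). None passed an adjusted p of 0.05 with edgeR, and 1 was lower and 0 were higher in EBM by unadjusted p under 0.05, against 3.90% and 4.01% of all genes tested. That gene was Gins3, a GINS subunit, at 13.4, 19.7 and 17.96 CPM in CBM 1 to 3 and 12.4, 12.5 and 13.1 CPM in EBM 1 to 3, with every EBM library below every CBM library and a log2 fold change of -0.43 (SE 0.17, adjusted p = 0.608 by edgeR). Cdc25a, the phosphatase that activates Cdk2, had a log2 fold change of -0.24 (SE 0.13, adjusted p = 0.725 by edgeR). Of 45 other mitosis genes, all tested, 28 were negative and 17 positive (34 and 11 with library totals), with a median of -0.04 and 0 at an unadjusted p under 0.05. The smallest p belonged to Ccnf (-0.37), Nek2 (0.29) and Sgo2a (-0.46), with fold changes on the log2 scale.

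Brakes of the cell cycle and the DREAM and E2F factors were read in the same way. Of 26 genes, all tested, 17 were negative and 9 positive (20 and 6 with library totals), and the median was -0.06 on the log2 scale. With library totals the median over all genes was -0.07. By an edgeR p under 0.05 before adjustment, 2 were lower and 0 were higher, against 3.90% and 4.01% of all genes tested. One was E2f8, an E2F repressor that itself rises in S phase, at 78.6, 106 and 92.9 CPM in CBM 1 to 3 and 66.4, 76.2 and 68.4 CPM in EBM 1 to 3. All EBM libraries were below all CBM libraries, with a log2 fold change of -0.40 (SE 0.13, adjusted p = 0.520 by edgeR). The other was Tob1, an antiproliferative gene, with a log2 fold change of -0.51 (SE 0.21, adjusted p = 0.625 by edgeR). The third by p was Btg1, another antiproliferative gene, with 0.52 (SE 0.27, adjusted p = 0.702 by edgeR).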

How the data were processed

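RNA-seq counts were available for 6 libraries of AE9a leukemia cells, 3 from CBM and 3 from EBM. The authors made directional libraries from rRNA-depleted RNA, although the labels give the library type as mRNA, and deposited raw read counts per gene without normalization. The submitters' processing notes name HISAT2 2.0.5 and the build mm10. The counting tool is not given in the sources used here. Gene positions were those of GENCODE M21 (GRCm38) for 98.3% of shared identifiers. The deposited gene length was used for levels per kb.

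Genes were kept by filterByExpr and scaled by TMM (factors 0.948 to 1.04). EBM was compared with CBM by the quasi-likelihood F-test of edgeR 4.0.16 in R 4.3.3, with Benjamini-Hochberg adjustment over all 13352 genes at 0.05. No block was used, since the study's methods name an unpaired test for comparisons of 2 groups. They do not name it for RNA-seq in particular. The SE is the absolute log2 fold change divided by the square root of F, and 95% intervals use the test's degrees of freedom. Single values were tested by exact permutation over 20 relabellings of log2 CPM with a prior count of 2. Centred levels used log2(CPM + 0.1). A floor of 3 counts was between 0.154 and 0.183 CPM. It covers counting error only. Alternatives were DESeq2 1.42.0, limma-voom (limma 3.58.1), RLE factors, library totals, no filter, at least 10 counts in every library, a replicate block, counts thinned to the smallest total, and the omission of single libraries. The methods were also run on simulated data, with planted changes larger than those fitted for the replication and mitosis genes. The simulation had no shared shift between libraries such as the one seen here, so it does not bear on these genes. No libraries of a group were the same within sampling noise (chi-square per degree of freedom at least 11.9).

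Members and lists were chosen with earlier results of these data known. Given in full were, for each set, the 6 genes of smallest p and 14 genes fixed by name, and of each further list the 3 with the smallest p, of which 1 is not reported here. Promoters came from RefSeq (GRCm38.p6).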

Additional observations from a re-analysis of the deposited data

How the results depend on the processing

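None of the 44 genes had an adjusted p under 0.05 in any of the 14 alternatives. The count over all genes, 0 in edgeR's test (1056 at an unadjusted p under 0.05), was 175 with DESeq2 (131 higher and 44 lower in EBM) and 40 without a filter on low counts (38 higher and 2 lower), and the cause was not tested. The median log2 fold change of the replication genes lay between -0.20 and 0.02 and that of the mitosis genes between -0.16 and 0.08 over the alternatives. Signs were kept by 266 of 294 values of the named genes. The other 28, in 11 genes, changed sign. For Mcm10 the log2 fold change was 0.0017 with DESeq2, 0.0067 with limma-voom, 0.0027 without a filter, 0.0081 with the replicate block and 0.0054 after thinning. With library totals it was -0.0667 for Mcm2, -0.0267 for Cdk1 and -0.0587 for Mki67, and the median of all genes was then -0.07. With each library left out, it ranged from -0.12 to 0.14 for Mcm10, -0.16 to 0.12 for Mcm2, -0.16 to 0.24 for Mki67, -0.0294 to 0.12 for Cdk1, -0.31 to 0.0094 for Ccnb1, -0.15 to 0.0374 for Plk1, -0.26 to 0.0169 for Bub1, -0.28 to 0.0066 for Ttk, -0.23 to 0.14 for Top2a, -0.18 to 0.0046 for Pcna and -0.21 to 0.0148 for Mybl2. The replicate numbers were not taken as pairs. Deviations from the group means correlated with r of 0.676, -0.204 and 0.203 between libraries numbered 1, 2 and 3, and not every library correlated best with its own number, which does not settle whether libraries share a mouse. With the replicate block 0 genes passed an adjusted p of 0.05 (1203 under 0.05 before adjustment, 3 of them among the 44). The median was -0.03 for the mitosis genes and -0.07 for the replication genes, and the edgeR adjusted p was 0.513 for Ccne1 and 0.461 for Ccne2. With the block the SE went from 0.1985 to 0.1141 for Mcm2, from 0.1934 to 0.1254 for Ccne2 and from 0.1013 to 0.0915 for Cdk1.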

Other observations

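Between libraries of the same replicate number, the median difference in log2 CPM over the 44 genes, EBM minus CBM, was 0.12 for number 1, -0.30 for number 2 and 0.04 for number 3. The replication genes had medians of 0.10, -0.32 and 0.06, and the mitosis genes 0.15, -0.27 and 0.04. Ccne1 differed by -0.55, -1.295 and -0.35 and Ccne2 by -0.45, -0.71 and -0.505, so these 2 genes were lower in EBM where the medians of the 44 were positive as well. The other genes with a negative difference in all 3 pairs were E2f1, Rrm2 and Foxm1, and they were picked out after their values were seen. For Ccne2 the pattern follows from every EBM library lying below every CBM library. The share of all genes tested with this pattern was not computed, so it is a description only.

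Cdkn1a, the p21 inhibitor of cyclin E and Cdk2 complexes, was at 134, 41.7 and 76.6 CPM in CBM 1 to 3 and 217, 175 and 77.7 CPM in EBM 1 to 3, and this gene too was chosen after its values were seen. CBM 2 was lowest and EBM 1 highest, with CBM 1 between the EBM libraries. Its log2 fold change was 0.90 (SE 0.50, edgeR adjusted p = 0.725). The antiproliferative gene Btg2 was at 268, 354 and 199 CPM in CBM 1 to 3 and 308, 314 and 479 CPM in EBM 1 to 3, with EBM 3 highest and a log2 fold change of 0.42 (SE 0.26, edgeR adjusted p = 0.753). Btg2 was likewise chosen with its values known. Cdkn1a and Btg2 belong to the 26 brakes, DREAM and E2F factors above, of which 17 fold changes were negative and 9 positive.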
